A study of Mus musculus with 2 samples.

Results

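Each of the 6 microRNA genes described here lies inside an intron of a protein-coding gene with a role in signalling or adhesion of neurons: Mir342 in Evl, Mir708 in Tenm4, Mir346 in Grid1, Mir326 in Arrb1, Mir488 in Astn1 and Mir490 in Chrm2. They were picked by gene symbol and named host out of 2202 microRNA genes in the count table, and all 6 were found there. The tissue was labelled layer of hippocampus and came from male mice of the B6CASTF1/J strain, 10 days old, in 1 group of 2 replicates. That strain is the first cross between C57BL/6J and CAST/EiJ. Both replicates carry a label of 3 males each, with animal numbers that differ and a donor identifier that is the same, so the spread between these samples may be technical. The p-values below set the difference between the 2 samples against counting error only and do not measure that spread. The assay was microRNA sequencing of total RNA with fragments below 30 nt, and a read counts for the hairpin it aligns to on the sense strand.

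An intronic microRNA is transcribed as part of the host gene's primary transcript, or from a promoter of its own inside the host. The hairpin is cut out in the nucleus, the loop is removed in the cytoplasm, and 1 of the 2 arms is loaded into an Argonaute protein, where bases 2 to 8 (the seed) pair with target transcripts. The host proteins act at different points of neuronal signalling. Chrm2 is the muscarinic acetylcholine receptor that couples to inhibitory G proteins, Arrb1 (beta-arrestin) ends signalling of such receptors and draws them into the cell, and Grid1 is a delta-type glutamate receptor that organises synapses. Tenm4 is a teneurin, a transmembrane adhesion protein, Astn1 (astrotactin) holds migrating neurons to glial fibres, and Evl is an actin regulator of the Ena/VASP family found in growing processes. Messenger RNA of the hosts was not analysed here.

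The mature sequences are shown first, because the counts add up both arms of a hairpin and the seed is what a mature product offers to its targets. RefSeq (GRCm38.p6) listed both arms for all 6 genes. Each sequence runs 5′ to 3′ with the seed in capitals.

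miR-342-3p: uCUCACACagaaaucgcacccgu
miR-342-5p: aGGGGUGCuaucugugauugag
miR-708-5p: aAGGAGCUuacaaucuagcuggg
miR-708-3p: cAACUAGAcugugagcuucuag
miR-346-5p: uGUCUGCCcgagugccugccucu
miR-346-3p: aGGCAGGGgcugggccugcagc
miR-326-3p: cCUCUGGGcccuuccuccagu
miR-326-5p: gGGGGCAGggccuuugugaaggcg
miR-488-3p: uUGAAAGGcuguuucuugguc
miR-488-5p: cCCAGAUAauagcacucucaa
miR-490-3p: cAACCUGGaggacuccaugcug
miR-490-5p: cCAUGGAUcuccaggugggu

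The 12 mature products had 12 different seeds, so no pair of these genes forms a seed family. Of the 1738 mature microRNAs in the RefSeq table, 3 outside the group shared a seed with a product of it. These were miR-330-5p, with the seed of miR-326-3p, miR-28a-5p, with the seed of miR-708-5p, and miR-7001-5p, with the seed of miR-346-3p. The first 2 of these are printed for comparison, since their genes were well expressed.

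miR-330-5p: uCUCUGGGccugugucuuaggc
miR-28a-5p: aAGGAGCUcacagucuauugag

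Hairpins are printed for the gene with the highest level, Mir342, and for the gene whose level differed most between the libraries, Mir346, with the mature arms in capitals. The arms of Mir342 are separated by 20 bases and those of Mir346 by 15 bases. Of the 5 hairpins in the RefSeq table, those of Mir346 and Mir326 had the highest GC content, at 65.3% and 60.0%, against a median of 51.7% over the 1005 hairpins there. The hairpins of Mir342, Mir490 and Mir488 had 51.5%, 47.6% and 42.2%.

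Mir342: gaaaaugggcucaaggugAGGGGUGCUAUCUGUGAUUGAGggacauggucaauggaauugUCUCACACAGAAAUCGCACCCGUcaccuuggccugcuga
Mir346: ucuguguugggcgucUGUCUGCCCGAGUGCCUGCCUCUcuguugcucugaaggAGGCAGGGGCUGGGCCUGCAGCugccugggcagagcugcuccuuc

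All 6 hairpins lie on the plus strand, the strand of their host, and none overlaps an exon of any annotated host transcript (GENCODE M21, mm10). Mir342 lies at chr12:108658620-108658718, in intron 3 of 13 of Evl. Mir708 lies at chr7:96249424-96249532 in intron 1 of 32 of Tenm4, and Mir326 lies on the same chromosome at chr7:99552269-99552363 in intron 1 of 14 of Arrb1. The hairpin of Mir346, at chr14:34894609-34894706, is in intron 2 of 15 of Grid1. Mir488 at chr1:158505625-158505733 is in intron 5 of 22 of Astn1, and Mir490 at chr6:36421742-36421825 is in intron 2 of 2 of Chrm2. Intron numbers refer to 1 principal coding transcript of each host.

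The introns differed in size more than the hairpins. Those around Mir708, Mir490 and Mir346 measure 143, 134 and 123 kb, those around Mir326 and Mir342 measure 46.5 and 20.2 kb, and that around Mir488 measures 4.38 kb. Mir488 begins 0.155 kb after the exon upstream of it, the shortest such distance of the 6, while Mir346 begins 71.9 kb after its upstream exon. In Grid1 and Tenm4, the longest hosts at 763 and 740 kb, the hairpin starts within the first 9.76% and 10.6% of the gene, and in Evl it starts at 77.7%. The nearest other microRNA gene lay between 56.1 kb (for Mir708) and 4005 kb (for Mir346) away. That neighbour of Mir708 is Mir6394, in Tenm4 as well, which had 0 counts in both libraries, so a level of up to 0.858 CPM in replicate 2 and 0.623 CPM in replicate 1 was allowed. CPM means counts per 1000000 counts on microRNA genes, and 3 counts were taken as the limit that a 0 allows.

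**Figure D1:**
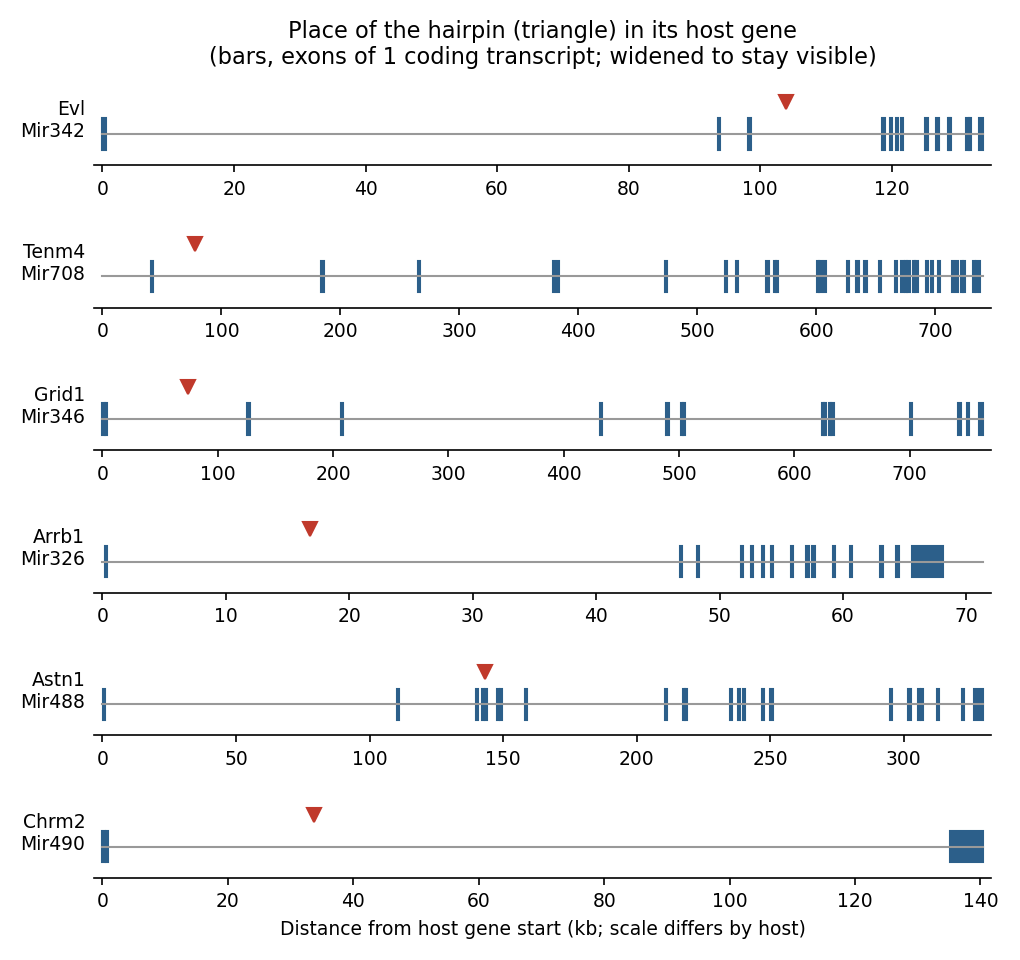
Place of each hairpin in its host gene: the horizontal axis is the distance from the annotated host start in kb, on a scale of its own for each host, bars are exons of 1 coding transcript and the triangle is the hairpin. The hairpins of Tenm4, Grid1, Arrb1 and Chrm2 sit within the first 24.0% of the host, and that of Evl sits at 103.9 of 134 kb.

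The count table held 3495401 sense counts in replicate 2 and 4815761 in replicate 1, which were 34.6% and 38.9% of all reads. Reads that fitted several places made up 39.8% and 37.7% and are in no gene count. Mature microRNAs are read whole, so levels were not divided by length. Equal capture of unlike sequences was not analysed, so a ratio between genes is a ratio of reads. Neuronal and forebrain microRNAs summed to 30032 CPM in replicate 2 and 24914 CPM in replicate 1, with 0 of 15 marker genes at 0 in both libraries. Mir132 led at 9936 and 4187 CPM and, with a log2 ratio of 1.25, differed by the rule given further below. The gap between the sums is smaller than the gap for Mir132 alone. Of the 13 genes tested, 8 had a log2 ratio above 0 and the others had one below 0. Of all 15 marker genes, 12 share bases with copies, so the sum can lie below the true one and the lead of Mir132 is uncertain. Some of the 15 were low: Mir124a-2 had 2 counts in replicate 2 and 0 in replicate 1, and Mir124a-3 had 4 in each. Mir124a-1 and Mir9-2 each had 11 counts in replicate 2 and 13 in replicate 1. Of 5 striated muscle genes, 4 were at 0 in both libraries, although all 4 share bases with copies. The remaining gene, Mir206, shares no bases with a copy and was present. It was counted 114 times in replicate 2 against 493 times in replicate 1 (32.6 against 102 CPM). With a log2 ratio of -1.65, it differed by the rule given further below. The liver gene Mir122 had 31.5 and 39.5 CPM.

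Together the 6 genes took 1.06% of sense counts in replicate 2 (37130 counts) and 1.51% in replicate 1 (72777 counts), a mean of 1.29% ± 0.317 (SD, n = 2). Every one of the 6 passed 10 CPM in both libraries, as did 312 of all 2202 genes, or 14.2%. At a minimum of 2 CPM in both libraries, 442 genes, or 20.1%, counted as detected, and 25.8% of the other 809 intronic genes did. The 6 were chosen with their expression known, so the contrast describes them and tests nothing. The lowest of them, Mir490, still lay above 64.0% of the 442 detected genes.

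Mir342 was the most abundant, at 7007 CPM in replicate 2 against 10286 CPM in replicate 1 (24494 and 49537 counts), a mean of 8647 ± 2319 CPM (SD, n = 2). The exact 95% Clopper-Pearson intervals were 6920 to 7096 CPM and 10197 to 10377 CPM, and such intervals cover counting error only. By counts that leave out reads fitting several places, the gene ranked 32nd among all microRNA genes in replicate 2 and 21st in replicate 1. This 1 gene held 66.0% of the counts of the group in replicate 2 and 68.1% in replicate 1, so the summed share mostly follows Mir342. Without it, a value chosen after seeing the data, the other 5 took 0.362% and 0.483%. Besides brain, miR-342 is known from lymphoid and myeloid cells. The markers of those cells that matched the table (4 of 5) summed to 906 CPM in replicate 2 and 495 CPM in replicate 1, and none was at 0. Mir150 made up most of that sum, at 776 and 372 CPM, while Mir142 had 32.9 and 41.3 CPM, Mir155 had 84.1 and 78.3 CPM and Mir223 had 13.4 and 3.11 CPM. The part of these cells in the level of Mir342 was not tested. In bulk tissue, fewer cells of a type and less RNA per cell cannot be told apart.

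Mir708 followed with 1695 CPM in replicate 2 against 2637 CPM in replicate 1, a mean of 2166 ± 667 CPM (SD, n = 2). Its ranges over the libraries overlapped neither those of Mir342 above it nor those of Mir346 below it. Mir342 stood 4.14 times as high as Mir708 in replicate 2 and 3.90 times in replicate 1, so their proportion moved little. Mir708 is the only member that shares 20 or more consecutive bases with another microRNA gene, Gm23134 in Blcap. That gene had 6 counts in each library, and reads fitting both would be missing from both counts, so the level of Mir708 is uncertain and can lie below the true one.

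MicroRNAs in the glutamate receptor and beta-arrestin genes had lower levels. Mir346 had 458 CPM in replicate 2 against 951 CPM in replicate 1, a mean of 705 ± 348 CPM (SD, n = 2). For Mir326 the levels were 749 CPM in replicate 2 and 505 CPM in replicate 1, with a mean of 627 ± 173 CPM (SD, n = 2). The order of these 2 genes was not the same in both libraries: Mir346 was at 0.612 times Mir326 in replicate 2 and at 1.88 times in replicate 1. Their ranges overlap, so their order is not resolved by 2 libraries.

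Mir488, in the astrotactin gene, had 448 CPM in replicate 2 against 368 CPM in replicate 1, a mean of 408 ± 56.3 CPM (SD, n = 2), the smallest relative spread of the 6 (coefficient of variation 13.8%). Mir490, in the muscarinic receptor gene, had 265 CPM in replicate 2 against 365 CPM in replicate 1, a mean of 315 ± 70.5 CPM (SD, n = 2). The 2 were 1.69 times apart in replicate 2. In replicate 1 they held 1773 and 1757 counts, with counting intervals of 351 to 386 CPM and 348 to 382 CPM, and were not separable there. Between the highest and the lowest of the group, Mir342 and Mir490, the ratio was 26.4 in replicate 2 and 28.2 in replicate 1. With 2 libraries, a sign-flip test cannot give a p below 0.5, so the order of levels is a description.

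**Figure D2:**
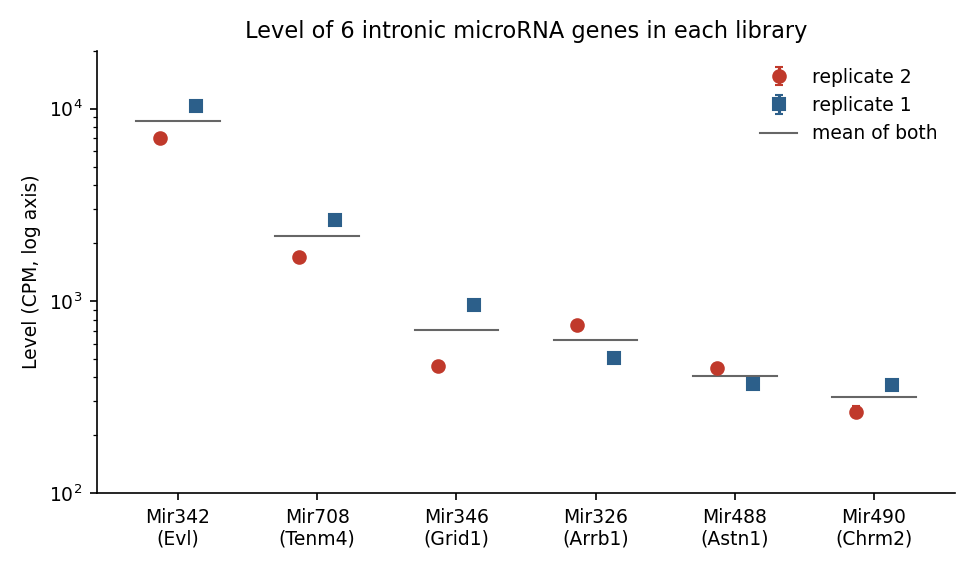
Level of each gene in CPM (log axis) in replicate 2 (circles) and replicate 1 (squares), with the mean of both as a line; vertical bars are exact 95% counting intervals, mostly smaller than the points. Mir342 stands at 7007 and 10286 CPM, Mir708 at 1695 and 2637 CPM, and Mir346 and Mir326 change places between the libraries.

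The libraries were then compared gene by gene, which asks how far 2 samples of the same kind differ and compares no conditions. Of the 6 genes, 1 differed, Mir346, which was lower in replicate 2. Differing here means a log2 ratio of 1 or more in size and, by a two-sided exact binomial test on the counts, a Benjamini-Hochberg adjusted p under 0.05 over the 540 genes with 10 or more counts. By this rule 101 of the 540 genes, 18.7%, differed in either direction, and 7.22% differed by being lower in replicate 2. A count of 1 in 6 is thus near the share over all genes.

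Mir346 had 1602 counts in replicate 2 against 4580 in replicate 1, a log2 ratio of -1.05 (counting interval -1.14 to -0.97; adjusted p = 4.0e-153 by the exact binomial test). The interval includes the minimum size of 1, and 78.1% of the tested genes had a smaller absolute ratio. In the same libraries, red blood cell microRNAs summed to 76.4 CPM in replicate 2 and 1229 CPM in replicate 1, with 2 of 3 genes differing and none at 0. Choroid plexus and ciliated cell microRNAs summed to 5333 and 2582 CPM, with all 6 tested genes above a ratio of 0 on the log2 scale, 3 of them differing by the rule, and 1 of the 7 genes, Mir449b, at 6 counts in replicate 2 and 0 in replicate 1. The endothelial Mir126a had 9301 and 14888 CPM. The 2 mural cell genes went the other way and summed to 4390 and 3962 CPM, with Mir145a differing (log2 ratio 1.18). Oligodendrocyte microRNAs summed to 1740 and 1037 CPM, with 2 of 3 log2 ratios above 0, and 2 of the 3 share bases with copies. The part of these cells in the ratio of Mir346 was not tested.

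The other 5 ratios were below the minimum size. Log2 ratios of replicate 2 over replicate 1 were -0.64 for Mir708, -0.55 for Mir342 and -0.46 for Mir490, and 0.57 for Mir326 and 0.28 for Mir488. Mir326 and Mir488 were thus the 2 with a ratio above 0. By the exact binomial test alone, without the minimum ratio, all 6 had an adjusted p below 0.05, the highest being 5.5e-08 for Mir488, as did 55.7% of all tested genes. With library totals as the scaling, ratios of this size exceed counting error, and counts of 927 to 49537 per gene and library make that error small.

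Among all tested genes, the share with a smaller absolute log2 ratio ran from 29.4% for Mir488 to 78.1% for Mir346. The absolute log2 ratio over the 540 tested genes had a median of 0.54 and quartiles of 0.26 and 0.98, and the median over the 6 genes was 0.56. Coefficients of variation ran from 13.8% for Mir488 to 49.4% for Mir346, where the common biological coefficient of variation over 427 genes was 38.6% in edgeR, estimated from the same 2 libraries. No test of the ratios against this spread was made, since 1 library on each side leaves no separate estimate of it.

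In direction, 4 of the 6 genes had a log2 ratio below 0, with a median of -0.51, while 42.8% of the tested genes had one below 0 and the median over all of them was 0.17. That overall median depends on the scaling: TMM sizes gave 0.086 and DESeq2 size factors gave 0.00094. The share of differing genes that were higher in replicate 2 was 61.4% with library totals, 52.1% with TMM and 44.4% with DESeq2. Relative to the median over all tested genes, Mir346 was at -1.22, Mir708 at -0.81, Mir342 at -0.73 and Mir490 at -0.63, and Mir326 and Mir488 were at 0.40 and 0.11. The sign of each of the 6 ratios was the same under these 3 scalings. The smallest of them, that of Mir488, was 0.28 with library totals, 0.20 with TMM and 0.11 with DESeq2. How far it exceeds counting error thus depends on the scaling.

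**Figure D3:**
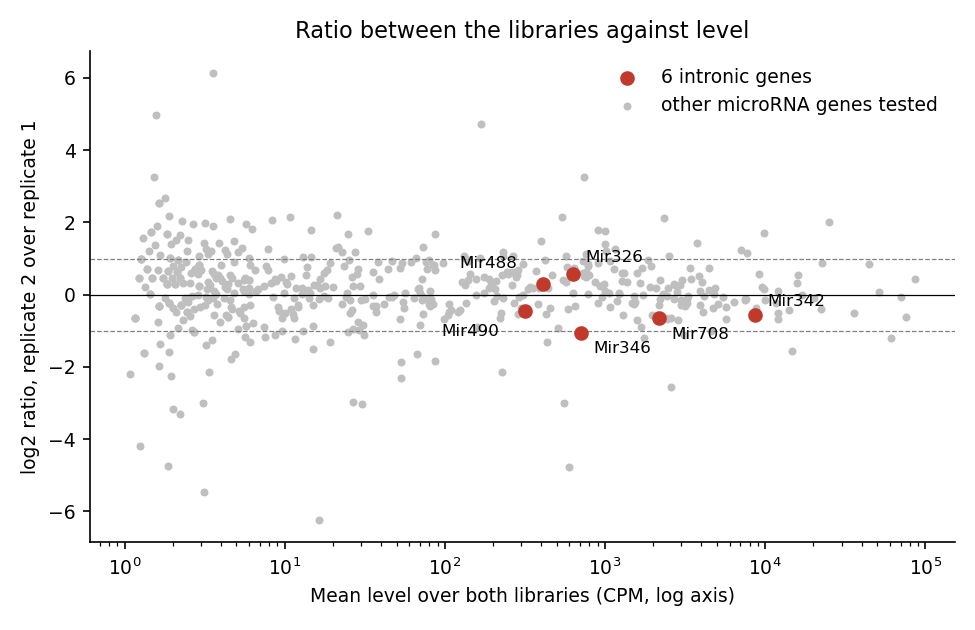
Log2 ratio of replicate 2 over replicate 1 (vertical) against the mean level in CPM (horizontal, log axis) for 540 tested microRNA genes, with the 6 intronic genes as large points; dashed lines mark log2 ratios of -1 and 1. Mir346 lies just past the lower line at -1.05 and the other 5 lie between the lines, within the cloud of genes of similar level.

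Seed partners were present at levels above and below those of the group. Mir330, whose miR-330-5p carries the seed of miR-326-3p, had 4689 CPM in replicate 2 against 4255 CPM in replicate 1, which was 6.26 and 8.43 times the level of Mir326. Mir326 was therefore the minor source of reads among the genes that encode this seed, with the limit that the counts do not say which arm was read. Mir28a, in an intron of Lpp, had 938 CPM in replicate 2 against 1200 CPM in replicate 1 and shares bases with 1 other gene, so its level is uncertain. Mir708 was 1.81 and 2.20 times as high as Mir28a. Mir7001, the seed partner of Mir346, had 0 counts in replicate 2 and 3 in replicate 1, at or under the limit for a 0.

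Other microRNA genes with the most similar levels in both libraries were found by Euclidean distance in log2(CPM + 1) over the 2 libraries. For Mir342 these were Mir411 (distance 0.15), which shares bases with another gene, and Mir92b (0.39). Mir708 was nearest to Mir30e (0.18) and Mir369 (0.21), and Mir326 was nearest to Mir222 (0.13) and Mir375 (0.22). Mir488 lay by Mir500 (0.13) and Mir350 (0.18), both intronic, and Mir490 by Mir376c (0.11), which shares bases with a copy, and Mir3102 (0.20). Mir346 had no close neighbour: Mir339 and Mir15a, the nearest, were at 0.52 each. With 2 samples, this likeness says only that the levels are close.

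The 6 genes were set beside 36 other microRNA genes, 5 of which share bases with a copy. These 36 lie within 23 host genes picked by symbol, among them genes for receptors, channels, adhesion and signalling proteins. The list is neither a complete nor a pure set of such hosts, so its values describe the list alone. Of those 36, 30 reached 2 CPM in both libraries, against all 6 of the group. The most abundant were Mir139 in Pde2a (57346 CPM in replicate 2 and 31820 CPM in replicate 1), Mir149 in Gpc1 (19256 and 25508 CPM) and Mir151 in Ptk2 (7266 and 7846 CPM). Mir342 lay close to the last of these. The median of mean levels was 666 CPM over the 6 genes, 265 CPM over the 30 detected genes of the other hosts and 79.7 CPM over all 442 detected genes.

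Between the libraries, 9 of 33 tested genes in the other hosts differed, 27.3%, against 18.7% of all 540 tested genes. Of the 33, 24 had a log2 ratio above 0, as did 309 of the 540. The median log2 ratio was 0.58 over the 33 and 0.17 over the 540, where the 6 genes had -0.51. Higher in replicate 2 were Mir204 in Trpm3 (1.79) and, in the serotonin receptor gene Htr2c, Mir1298 (3.27), Mir764 (1.33) and Mir448 (1.02). Mir1912 in Htr2c was also higher, with 25 counts in replicate 2 and 0 in replicate 1, as were Mir211 in Trpm1 (10 and 2 counts) and Mir452 in Gabre (10 and 1 counts). Lower in replicate 2 were Mir153 in Ptprn2 (-2.30) and Mir592 in Grm8 (-1.52). Mir204 and Mir211 are among the choroid plexus markers whose sums are given above, and the part of that tissue in these ratios was not tested. Whether the 6 genes differ from this list was not tested, as both were chosen with results known.

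**Figure D4:**
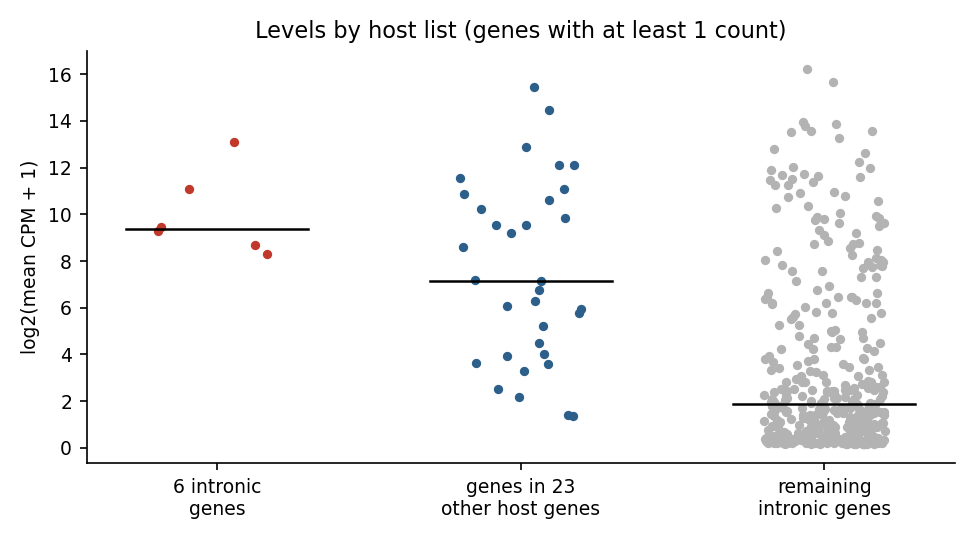
Mean level as log2(mean CPM + 1) of the 6 intronic genes, of genes in 23 other host genes and of the remaining intronic microRNA genes; each point is a gene with at least 1 count and lines are medians. The 6 genes lie between 315 and 8647 CPM, while the genes in other hosts reach 44583 CPM and the 358 remaining intronic genes have a median of 2.68 CPM.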

How the data were processed

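The deposited values are raw counts of reads per microRNA gene, 1 table per library, with mm10 and GENCODE M21 named in the notes deposited with the counts. Replicates were not pooled, per those notes. Which aligner and counter made them, and how reads were trimmed, is not given in the sources used here for either library. Each table has unstranded counts and counts for each strand. Column 3 of the table was taken as sense, and 4 lines of totals were left out. All 2202 identifiers matched GENCODE M21 for symbols, positions and hosts. Reads fitting several places and reads from CAST/EiJ alleles were not analysed here.

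CPM were computed from the sense counts on genes. Log2 ratios had 0.5 counts added. The libraries were compared by an exact binomial test with Benjamini-Hochberg adjustment over all genes with at least 10 counts, because comparing 1 library with 1 library leaves no residual degrees of freedom for edgeR's quasi-likelihood test. The comparison step was tested on simulated counts with planted changes and counting error only. Spread between libraries was not simulated, so that test does not show how the step behaves with the spread seen here. Mature and hairpin sequences came from RefSeq (GRCm38.p6), which listed hairpins for 5 of the 6 genes. Hairpin copies were genes sharing 20 consecutive bases.

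The members, lists and rules were chosen with earlier results of these data known. Named genes were the 6 members, the 2 genes nearest to each in level, seed partners, the 3 most abundant and all differing genes of the other hosts, and leading markers. Mir6394, Gm23134, Mir142, Mir146, Mir155, Mir223, Mir145a, Mir449b, Mir9-2, Mir124a-1, Mir124a-2 and Mir124a-3 were named after their values were seen. One marker, Mir146a, did not match a symbol, and the gene with the symbol Mir146 was not counted in its place. Tests ran in SciPy 1.17.1 under Python 3.11.15, figures were drawn in matplotlib 3.10.9, and TMM and size factors came from edgeR 4.0.16 and DESeq2 1.42.0 in R 4.3.3.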

Additional observations from a re-analysis of the deposited data

Results flagged for a closer look

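Mir708 had reads on the opposite strand, which no comparison above uses. Replicate 2 had 1 such count, or 0.0169% of the reads of Mir708 on both strands. Replicate 1 had 5, or 0.0394%, which is above the 3 counts that a 0 allows. The other 5 genes had 0 opposite-strand counts in both libraries. Over all microRNA genes, 5.72% of counts in replicate 2 and 5.52% in replicate 1 were on that strand. However, the unstranded totals (3283430 and 4534817) were below the sense totals (3495401 and 4815761). Opposite-strand counts can thus hold sense reads of an overlapping gene on the other strand. The shares over all genes are therefore no background for the 6 genes.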

How the results depend on the processing

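With all reads as denominator, mean levels were 3214 for Mir342, 806 for Mir708, 264 for Mir346, 228 for Mir326, 149 for Mir488 and 117 for Mir490, in counts per 1000000 reads, and the share of the 6 genes was 0.478%. The share was 0.422% without Mir342, which was left out only after the data were seen. With no minimum ratio, 301 genes differed, among them all 6, adding Mir708 (-0.64), Mir342 (-0.55), Mir490 (-0.46), Mir326 (0.57) and Mir488 (0.28). With at least 50 counts, 67 genes differed, as fewer genes were tested. In the other 88 comparisons of a result with an alternative (scaling, filters on low counts, unstranded counts, pseudocount, detection at 1 or 10 CPM, copies and each replicate left out), results kept their direction and their side of the thresholds or moved by less than 1 SD. Leaving 1 of 2 replicates out moves a mean by less than 1 SD whatever the values, so those outcomes were fixed in advance and show no robustness. A difference between the libraries cannot be had with a replicate left out. No paired analysis was possible because the labels give 1 group.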
